A study of Mus musculus with 117 samples.

Results

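Transcripts of 10 genes of the metallothionein, heme and antioxidant response were followed in astrocyte-targeted RNA of the mouse spinal cord, after injury and during postnatal life. The list was given by name, with Mt1, Mt2 and Mt3 (metallothioneins), Hmox1 (heme oxygenase 1), Fth1 and Ftl1 (ferritin heavy and light chains), Slc7a11 (a subunit of the cystine transporter), Gclm (a subunit of the enzyme that starts glutathione synthesis), Nqo1 (a quinone reductase) and Srxn1 (sulfiredoxin). Matched by Entrez identifier, they were 10 of the 27179 genes deposited, and all 10 had enough counts to be tested in every comparison. RiboTag mice carry a ribosomal protein that gains an HA epitope wherever Cre has acted. Precipitation of the epitope from spinal cord gave the ribosome-associated RNA of Cre-expressing cells (70 RiboTag libraries), and RNA that stayed in solution gave the Flow libraries (47), which hold all cell types of the tissue. Female Aldh1l1-CreERT2 -RiboTag mice, young adults, contributed both fractions without injury (n = 4) and after a complete crush SCI at 2 d (n = 5) and at 5, 14, 28, 42 and 70 d (n = 4 each), and male mice of the same genotype did so at 5 and 14 d (n = 4 each). In this line Cre is driven by the astrocyte promoter Aldh1l1 and is activated by tamoxifen. The mGfap line, labelled 73.12 GFAP Cre -RiboTag, carries Cre under the mouse Gfap promoter with no need for tamoxifen. It contributed RiboTag libraries of uninjured mice at P0 (n = 4, all male), P3 (n = 3), P7 (n = 3), P14 (n = 5), P21 (n = 4), P35 (n = 4) and P63 (n = 5), each of the later ages holding both sexes, RiboTag libraries of females 14 d after SCI (n = 5), and Flow libraries at P63 and at 14 d (n = 5 each). Every mouse carried the RiboTag allele and a Cre transgene.

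Total counts ranged from 67253656 to 128400518 among RiboTag and from 40710428 to 136008399 among Flow libraries, and were lowest in Flow at 2 d (40710428 to 75175387). Levels are given below as CPM, counts scaled to the size of the library, on a common scale for all libraries. In uninjured Aldh1l1 mice 10 astrocyte markers, all of them detected, summed to 53110 to 62770 CPM in RiboTag and to 2020 to 2459 CPM in Flow libraries. In RiboTag libraries the same sum was 23150 to 32030 CPM at 2 d and 24990 to 38320 CPM at 5 d. A list of 8 markers of monocyte-derived macrophages, each of them detected in all of these libraries, summed in RiboTag to 46.0 to 90.3 CPM without injury, 2125 to 4232 at 2 d, 14200 to 18700 at 5 d, 10140 to 15570 at 14 d and 1171 to 3907 at 70 d, against 3102 to 4153 CPM in Flow at 5 d. The list did not move as 1, since in RiboTag 7 of these markers were called higher and 1 lower than without injury at each time. In the mGfap line 6 oligodendrocyte markers summed in RiboTag libraries to 9207 to 12940 CPM at P63 and 25290 to 38320 CPM at 14 d after SCI, against 3134 to 7724 CPM in uninjured Aldh1l1 RiboTag libraries. Erythrocyte markers, of which 5 were among the deposited genes, summed without injury to 34.08 to 125.3 CPM in Aldh1l1 RiboTag and 5.725 to 26.25 CPM in Flow libraries. At 70 d they summed to 101.6 to 393.9 CPM in RiboTag. The part that RNA of these other cell types had in the results below was not tested. In such tissue libraries fewer cells of a type and less RNA per cell cannot be told apart.

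Metallothioneins are small cysteine-rich proteins that bind zinc and copper, and transcription of Mt1 and Mt2 is driven by the zinc-sensing factor MTF1 and by glucocorticoid and cytokine signals, whereas Mt3 is a form found mainly in the nervous system. Heme released from red cells after bleeding is cleaved by heme oxygenase to biliverdin, carbon monoxide and iron, and ferritin, a shell of heavy and light chains, stores the iron. NRF2 (Nfe2l2), which KEAP1 marks for degradation and BACH1 competes with on DNA, switches on genes for glutathione synthesis, thioredoxin reduction and quinone removal, and Hmox1, both ferritin chains, Slc7a11, Gclm, Nqo1 and Srxn1 are commonly listed among its targets.

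Promoter windows of the members, the 250 bases before each RefSeq transcription start (GRCm38.p6), were searched on both strands for the core of the antioxidant response element to which NRF2 binds (TGACNNNGC) and for the core of the metal response element to which MTF1 binds (TGCACNC or TGCGCNC). The table of sequences held such a window for 9 of the 10 genes. An antioxidant core was present in 2 of these genes and in 10.2% of all 32841 windows, and a metal core was present in 4 of these genes and in 21.4% of all windows. The windows of Mt2 (chr8:94172368-94172617, + strand) and Gclm (chr3:122245307-122245486, + strand, the stretch before the annotated gene) are printed because they are the 2 that held an antioxidant core, with matched bases in capitals.
Mt2: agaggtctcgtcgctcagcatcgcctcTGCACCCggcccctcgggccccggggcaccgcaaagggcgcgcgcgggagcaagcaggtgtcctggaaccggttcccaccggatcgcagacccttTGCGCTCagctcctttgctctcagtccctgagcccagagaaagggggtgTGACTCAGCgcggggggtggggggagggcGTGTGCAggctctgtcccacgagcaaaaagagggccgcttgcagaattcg
Gclm: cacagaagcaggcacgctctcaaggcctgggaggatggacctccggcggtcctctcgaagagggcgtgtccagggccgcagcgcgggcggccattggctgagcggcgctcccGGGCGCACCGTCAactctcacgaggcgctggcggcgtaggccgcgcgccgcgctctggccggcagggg
In Mt2 metal cores began 223, 128 and 50 bases before the start and an antioxidant core 79 bases before it, in Mt1 a single metal core began 23 bases before the start, and in Gclm an antioxidant core at 134 bases overlapped a metal core at 138 bases, with a further metal core at 72 bases. Srxn1 held a metal core 19 bases before its start. The Mt1 window lay with 206 of its bases, and the Gclm window with 70, inside the annotated span of the gene, and these bases are not printed. The Gclm metal core at 72 bases runs into that span, so it is not in capitals. The Slc7a11 window and 1 of the Fth1 windows lay wholly inside the span of their gene. A match says only that these letters are in the window.

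In RiboTag libraries of uninjured mice the metallothioneins stood far above the other members. Per length, as RPKM (CPM divided by the exon length in kilobases) in RiboTag libraries of uninjured Aldh1l1 mice (mean ± SD, n = 4), Mt1 was at 3748 ± 296, Mt3 at 3028 ± 402 and Mt2 at 2629 ± 290. Fth1 followed at 713 ± 63.8 and Ftl1 at 52.1 ± 1.73 RPKM. Srxn1 (25.6 ± 0.504), Gclm (24.8 ± 0.571) and Nqo1 (24.3 ± 1.05) came next, each within an SD of its neighbour in that order when both spreads are counted, and Hmox1 (10.2 ± 1.71) and Slc7a11 (8.40 ± 2.03) were lowest, with overlapping spreads. By 5 d after SCI Hmox1 (1998 ± 436 RPKM) and Ftl1 (2202 ± 479 RPKM) stood beside the ferritin heavy chain (2759 ± 321.9 RPKM) and Mt3 (2868 ± 490 RPKM).

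After SCI between 6 and 9 of the 10 genes passed at each time in RiboTag libraries. By edgeR's quasi-likelihood test at an FDR under 0.01 against uninjured mice, the members passed in 9 of 10 cases at 2 d, when 60.1% of all genes tested did, and in 7 of 10 at 5 d (56.8% of all genes). At the later days 6 passed at 14 d (47.3% of all genes), 8 at 28 d (41.9%), 7 at 42 d (43.3%) and 9 at 70 d (45.3%). All 6 comparisons use the same 4 uninjured libraries. Mean levels of Hmox1, Ftl1 and Fth1 were highest at 5 d, that of Srxn1 at 2 d and those of the 3 metallothioneins at 70 d, and Nqo1 was called lower at 2 and 5 d and higher from 28 d on.

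**Figure D1:**
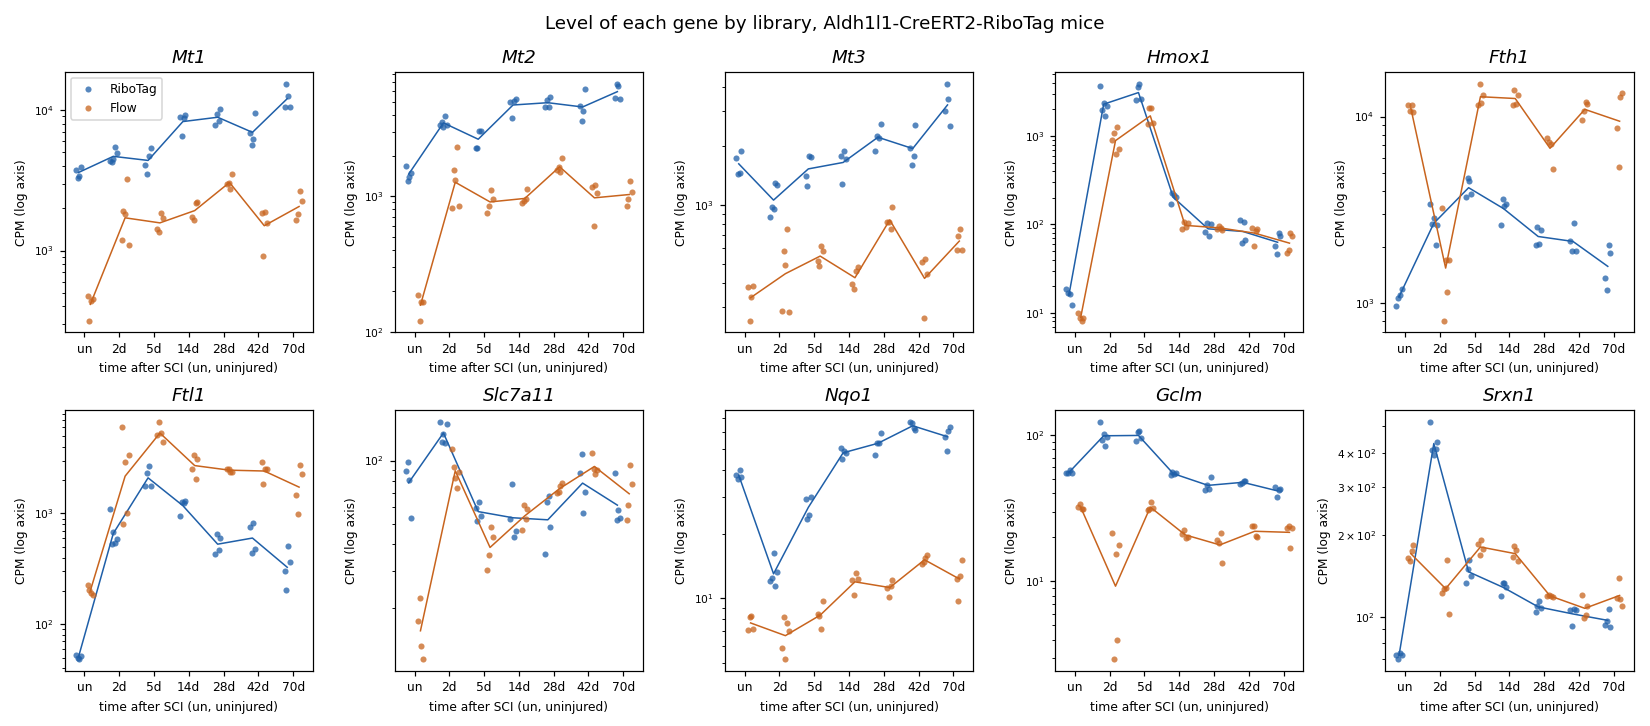
Level of each of the 10 genes (CPM, log axis) by time after SCI in RiboTag (blue) and Flow (orange) libraries of female Aldh1l1-CreERT2 -RiboTag mice, a point per library and a line through the geometric means. RiboTag Hmox1 climbs from 12.3 to 18.7 CPM without injury to 1695 to 3623 CPM at 2 d, and Fth1 of Flow libraries drops at 2 d to 801 to 3243 CPM.

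Mt1 (chr8:94178883-94180327), the most abundant member, was called higher in RiboTag libraries from 14 d on. Uninjured RiboTag libraries held 3773, 3304, 3421 and 3907 CPM, and those of 70 d held 10430, 15400, 12580 and 10450 CPM. At 14 d they held 8994, 6491, 8769 and 9180 CPM. The groups at 14 and 70 d lay wholly above the uninjured libraries. The log2 fold change was 1.16 ± 0.16 (SE) at 14 d (adjusted p = 2.54e-07, edgeR's quasi-likelihood test), 1.31 ± 0.16 at 28 d and 1.77 ± 0.16 at 70 d (adjusted p = 2.73e-10), a 3.41-fold level. At 2 d it was 0.39 ± 0.15 (adjusted p = 0.0202) with all 5 libraries (4289 to 5483 CPM) above the uninjured ones, and 0.62 with the call passed when libraries were scaled by total counts, and at 5 d it was 0.28 (adjusted p = 0.119).

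Mt2 (chr8:94172618-94173567), the neighbouring gene induced by the same signals, was higher at every time. Uninjured RiboTag libraries held 1669, 1296, 1384 and 1497 CPM, the 5 libraries at 2 d 3338, 3553, 3251, 3934 and 3385 CPM, and the 70 d libraries 5327, 6782, 6496 and 5254 CPM. No library after SCI overlapped the uninjured range. Log2 fold changes were 1.26 ± 0.14 at 2 d (adjusted p = 2.72e-09, edgeR), 0.84 ± 0.14 at 5 d, 1.65 to 1.75 from 14 to 42 d and 2.04 ± 0.15 at 70 d (adjusted p = 2.93e-12).

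Mt3 (chr8:94152607-94154148), the form of the nervous system, went the other way at first. The 4 uninjured libraries ranged from 1441 to 1883 CPM, the libraries at 2 d held 864.9, 979.5, 951.8, 1291 and 1268 CPM, and those of 70 d held 3009, 4149, 3468 and 2524 CPM. The 2 d libraries all lay below the uninjured range and the 70 d libraries all above it, while at 5 to 42 d the groups overlapped. Mt3 fell by 0.60 ± 0.16 on the log2 scale at 2 d (adjusted p = 0.00153, edgeR), where scaling by total counts gave -0.37 and no call, and rose by 1.02 ± 0.17 at 70 d (adjusted p = 1.02e-05). The step from 42 to 70 d was 0.78 for Mt1 (adjusted p = 0.000708) and 0.73 for Mt3 (adjusted p = 0.0025). These were the 2 members of 10 that passed in that step, against 12.6% of all genes, and neither passed when the groups of 42 and 70 d were fitted alone (0.79 and 0.75). Without 42 d replicate 2 or 3 or 70 d replicate 2, Mt3 did not pass (0.64, 0.69 and 0.60). Ftl1 (-0.86) passed in that step with DESeq2 (-0.84) and without 42 d replicate 2, 42 d replicate 4 (-0.96) or 70 d replicate 3 (-1.12), and Mt2 (0.35) passed without 42 d replicate 4 (0.52). Ependymal markers, a list of 5, summed to 10.5 to 13.4 CPM in uninjured and 78.6 to 126 CPM in 70 d RiboTag libraries, and their part in the late levels was not tested.

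Hmox1 (chr8:75093618-75100593), the inducible enzyme that opens the heme ring, had the widest range of the list. Uninjured RiboTag libraries held 18.7, 16.9, 16.4 and 12.3 CPM, the 2 d libraries 3623, 1959, 2352, 1695 and 2202 CPM, and the 5 d libraries 2525, 3570, 3895 and 2609 CPM. Every library of these days lay far above every uninjured one. The log2 fold change was 7.21 ± 0.28 at 2 d (adjusted p = 1.2e-17, edgeR) and 7.59 ± 0.29 at 5 d (adjusted p = 1.88e-17), or 148-fold and 192.6-fold. The 14 d libraries held 170, 224, 215 and 205 CPM and the 70 d libraries 57.4, 46.7, 79.5 and 73.0 CPM. Between 5 and 14 d the level fell by 3.98 ± 0.25 (adjusted p = 8.28e-12) and between 14 and 28 d by 1.12 ± 0.22 (adjusted p = 0.0012). At 70 d Hmox1 remained 4.02-fold above uninjured mice, by 2.01 ± 0.23 on the log2 scale (adjusted p = 4.07e-08), with no overlap.

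Ftl1 (chr7:45457944-45459886), the ferritin light chain, was called higher at all 6 times, with its highest levels at 5 d. Uninjured RiboTag libraries held 52.6, 50.0, 48.6 and 51.1 CPM, the 2 d libraries 1088, 534, 677, 538 and 593 CPM, and the 5 d libraries 1760, 2315, 2711 and 1756 CPM. The groups were far apart at all 6 days. The log2 fold change was 3.77 ± 0.27 at 2 d, 5.37 ± 0.30 at 5 d (adjusted p = 2.36e-14, edgeR), 4.50 ± 0.28 at 14 d and 2.78 ± 0.26 at 70 d (adjusted p = 2.12e-09). The falls between 5 and 14 d (-0.88) and between 14 and 28 d (-1.09) passed with all libraries. The first did not pass without 5 d replicate 2 (-0.84) or 3 (-0.74) or on leaving out any single 14 d replicate (-0.79 to -0.92), and the second did not pass without 14 d replicate 2, 3 or 4 (-1.05 to -1.07) or 28 d replicate 1 (-0.999) or 3 (-1.03). The pseudogene Ftl1-ps2, with which the gene may share reads, was at 0.0648 CPM without injury and 1.504 CPM at 5 d on average, so that it was higher when Ftl1 was, and adding its counts changed no call. The summed macrophage markers were highest at 5 d too, at 14200 to 18700 CPM, and their part in these levels was not tested.

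Fth1 (chr19:9980600-9985111), the ferritin heavy chain that oxidizes iron for storage, changed less. It ranged from 956 to 1188 CPM in uninjured RiboTag libraries, held 3404, 2643, 2846, 2035 and 2610 CPM at 2 d, and ranged from 3685 to 4670 CPM at 5 d. No library at 2 to 42 d overlapped the uninjured ones. The log2 fold change was 1.33 ± 0.15 at 2 d, 1.93 ± 0.16 at 5 d (adjusted p = 1.69e-11, edgeR) and 1.02 ± 0.16 at 42 d. At 70 d it was 0.59 ± 0.16 (adjusted p = 0.00224), with libraries between 1173 and 2054 CPM of which the lowest lay within the uninjured range, and it did not pass without 70 d replicate 3 (0.44) or 4 (0.51) or uninjured replicate 1 (0.53), nor when both groups were fitted alone (0.56).

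Srxn1 (chr2:152105524-152111376), which repairs overoxidized peroxiredoxins, was called higher at all 6 times and highest at 2 d. Uninjured RiboTag libraries held 72.3, 70.0, 73.2 and 72.4 CPM, and the 2 d libraries 519.4, 411.2, 392, 411.7 and 440.1 CPM. All injured groups lay above the uninjured one without overlap. The log2 fold change of 2.60 ± 0.08 at 2 d (adjusted p = 7.97e-21, edgeR), 6.06-fold, declined to 1.00 ± 0.08 at 5 d, 0.78 at 14 d and 0.44 ± 0.08 at 70 d (adjusted p = 2.17e-05). Its step from 2 to 5 d was -1.60 ± 0.08 (adjusted p = 1.05e-15).

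Gclm (chr3:122245487-122267215) rose in the first days and later fell below the uninjured level. It ranged from 54.6 to 57.3 CPM without injury, from 84.2 to 123 CPM at 2 d and from 91.5 to 106 CPM at 5 d. The 70 d libraries held 43.8, 37.6, 42.3 and 42.4 CPM, all under the uninjured range. The log2 fold change was 0.85 ± 0.08 at 2 d (adjusted p = 1.62e-10, edgeR), 0.82 ± 0.08 at 5 d, -0.29 ± 0.08 at 28 d (adjusted p = 0.00443) and -0.41 ± 0.08 at 70 d (adjusted p = 0.000129). The 28 d call was lost when libraries were scaled by total counts (-0.21) and without uninjured replicate 3 (-0.28) or 28 d replicate 1 (-0.26), 2 (-0.29) or 3 (-0.26).

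Nqo1 (chr8:107388225-107403205), a textbook NRF2 target, moved opposite to Srxn1 and Gclm at 2 d. Uninjured RiboTag libraries ranged from 36.06 to 39.95 CPM, and the 2 d libraries held 12.1, 12.5, 16.3, 11.5 and 13.3 CPM. The 42 d libraries held 67.0, 66.3, 62.7 and 61.5 CPM. The gene fell by 1.52 ± 0.10 on the log2 scale at 2 d (adjusted p = 3.05e-14, edgeR), to 0.349 of the uninjured level, and by 0.52 ± 0.10 at 5 d, then rose by 0.50 ± 0.10 at 28 d, 0.78 ± 0.10 at 42 d (adjusted p = 1.24e-07) and 0.61 ± 0.10 at 70 d. At 14 d the change of 0.30 did not pass (adjusted p = 0.0122) although the 4 libraries lay above the uninjured range, and it passed with DESeq2 (0.31), with total-count scaling (0.41) and when both groups were fitted alone (0.34).

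Slc7a11 (chr3:50364936-50499087), which imports the cystine used for glutathione, was higher at 2 d alone. Uninjured RiboTag libraries held 88.9, 98.4, 81.1 and 53.2 CPM and the 2 d libraries 152.6, 122, 134, 121 and 149 CPM. These groups did not overlap. That log2 difference was 0.76 ± 0.21 (adjusted p = 0.0022, edgeR), and 0.61 without a call when uninjured replicate 4, the lowest, was left out. From 5 to 70 d the changes lay between -0.60 and 0.01 with overlapping libraries, none of them called. At 14 d the change of -0.60 passed with DESeq2 (-0.59) and without uninjured replicate 4 (-0.75) or 14 d replicate 2 (-0.81), and at 28 d the change of -0.58 passed without uninjured replicate 4 (-0.75).

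Between neighbouring times 6 of the 10 genes passed from 2 to 5 d (41.4% of all genes) and 6 from 5 to 14 d (25.3%). From 2 to 5 d Nqo1 (1.00), Fth1 (0.59) and Ftl1 (1.61) rose while Srxn1 (-1.60), Slc7a11 (-1.28) and Mt2 (-0.42) fell. The change of Mt2 was lost on leaving out any of the 5 libraries of 2 d or 5 d replicate 1 or 2 (-0.35 to -0.44), and that of Fth1 did not pass with total-count scaling (0.47). Mt3 (0.49, adjusted p = 0.0103) passed with DESeq2 (0.52), with the groups fitted alone (0.50) and without 2 d replicate 4 (0.57) or 5 (0.56) or 5 d replicate 2 (0.59). From 5 to 14 d Mt1 (0.89), Mt2 (0.81) and Nqo1 (0.81) rose while Hmox1, Ftl1 and Gclm (-0.90) fell. From 14 to 28 d 2 genes passed, Hmox1 and Ftl1 as given above, where 7.4% of all genes did. From 28 to 42 d none of the 10 passed in edgeR's test, where 1.67% of all genes did. With DESeq2 the count was also 0, and 3 members had an unadjusted p under 0.05, a threshold to which the 1.67% does not apply.

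The same genes were also measured in Flow libraries, which hold the RNA that was not precipitated. Members passing against uninjured mice numbered 8 of 10 at 2 d (65.6% of all genes), 6 at 5 d (49.6%), 6 at 14 d (44.1%), 8 at 28 d (48.9%), 7 at 42 d (44.6%), with 8 at 70 d (37.6%). Hmox1 and Ftl1 rose there too, with Hmox1 from 8.18 to 9.85 CPM without injury to 618 to 1260 CPM at 2 d (log2 fold change 6.72 ± 0.25) and 1351 to 2062 CPM at 5 d (7.67 ± 0.26), and Ftl1 from at most 227 CPM to 4403 to 6711 CPM at 5 d (4.82 ± 0.44). Mt1 and Mt2 were called at all 6 times, by 1.92 to 2.86 for Mt1 and by 2.61 to 3.37 for Mt2, with uninjured Flow libraries at 317 to 472 CPM of Mt1. Mt3 was called at 5, 28 and 70 d (0.77, 1.30 and 0.97), at 5 d not with DESeq2 (0.63), with total-count scaling (0.63) or without uninjured replicate 2 (0.61) or 3 (0.77) or 5 d replicate 3 (0.71) or 4 (0.75), and at 2 d (0.53) only without 2 d replicate 1 (0.69) or 5 (0.68). Slc7a11 rose in Flow at every time as well, from 11.4 to 22.3 CPM to 74.1 to 113 CPM at 2 d (2.52 ± 0.19) and 86.6 to 109 CPM at 42 d (2.57 ± 0.19).

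In the Flow libraries of 2 d Fth1 and Gclm were lower than without injury. Fth1 ranged from 801 to 3243 CPM there, against 10550 to 11540 CPM without injury, a fall by 2.67 ± 0.26 on the log2 scale (adjusted p = 5.13e-10, edgeR). Gclm held 21.2, 2.96, 15.5, 4.00 and 17.6 CPM against 31.2 to 33.9 CPM, a fall by 1.36 ± 0.32 (adjusted p = 0.000427) that did not pass when these groups were fitted alone (-1.45). Ftl1 held 5997, 810, 2938, 1013 and 3355 CPM and was the only ferritin chain above its uninjured libraries, which held at most 227 CPM. Replicates 2 and 4 were lowest for all 3 genes. At 5 d Fth1 in Flow was at 11520 to 15010 CPM and Gclm at 30.7 to 35.1 CPM. From 14 to 70 d Gclm lay wholly below its uninjured Flow libraries again, at 13.28 to 24.04 CPM, with log2 fold changes of -0.53 to -0.85 that were not called, though each passed when its groups were fitted alone and that of 28 d with DESeq2 (-0.96). Fth1 at 28 d (5218 to 7635 CPM) lay wholly below too, without a call (-0.71), and passed with DESeq2 (-0.83), with total-count scaling (-0.86) and fitted alone (-0.70).

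Nqo1 and Srxn1 were called in opposite directions in later Flow libraries. Nqo1 rose by 0.66 at 14 d, 0.54 at 28 d (0.39 and no call with total-count scaling), 1.00 at 42 d and 0.72 at 70 d, without overlap. Srxn1 fell by 0.53 at 28 d, by 0.65 at 42 d (adjusted p = 6.04e-06, edgeR) and by 0.49 at 70 d, also without overlap.

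Whether the change of a gene differed between the fractions was tested as its signed RiboTag change minus its signed Flow change. The members passed in 8 cases of 10 at 2 d (50.7% of all genes), 5 at 5 d (28.5%), 3 at 14 d (24.5%), 5 at 28 d (28.4%), 3 at 42 d (23.3%), with 2 at 70 d (17.7%). The median difference of all genes was 0.30 at 2 d and 0.19 or less afterwards. Differences were positive for Fth1 and Srxn1, at 4.19 ± 0.32 and 3.17 ± 0.13 at 2 d (adjusted p = 2.67e-16 and 6.66e-27, edgeR). Both genes rose in RiboTag and fell in Flow at that day. Srxn1 remained called at each time down to 0.98 ± 0.13 at 70 d. Srxn1 in Flow ranged from 160.1 to 184.1 CPM without injury and from 103 to 162 CPM at 2 d, a fall by 0.38 ± 0.10 that did not pass when these groups were fitted alone (-0.47). Negative differences were called for Slc7a11 at every time (-1.58 at 2 d to -2.71 at 28 d) and for Mt1 and Mt2 at 2, 5 and 28 d (-1.49 to -1.70). At 14 and 42 d the differences of Mt1 (-0.93 and -0.84) and Mt2 (-0.84 and -0.92) were not called in this fit, which leaves out that same-numbered libraries of both fractions come from the same precipitation. With the replicate number as a block both genes were called at both days (-0.95 and -0.84 for Mt1, -0.86 and -0.91 for Mt2), as were Nqo1 at 5 d (-0.52), Mt3 at 28 d (-0.80) and Fth1 at 70 d (0.82). Both Gclm (2.39) and Nqo1 (-1.18) differed at 2 d, and so did Mt3 (-0.94), whose call was lost with total-count scaling (-0.66) and without uninjured replicate 2 (-0.88) or 2 d replicate 2 (-0.82) or 4 (-0.81). The difference of Fth1 at 42 d, 1.09, was lost on leaving out the RiboTag and Flow libraries of any uninjured replicate or of 42 d replicate 1, 2 or 3 (1.00 to 1.17). For Hmox1 the differences ran from -0.80 to 0.68 and for Ftl1 from -0.39 to 0.84, none of them called in this fit, while with the block Hmox1 passed at 2 d (0.70) and 28 d (-0.80). At 2 and 28 d the deviations of some same-numbered libraries did not correlate with r over 0.1.

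**Figure D2:**
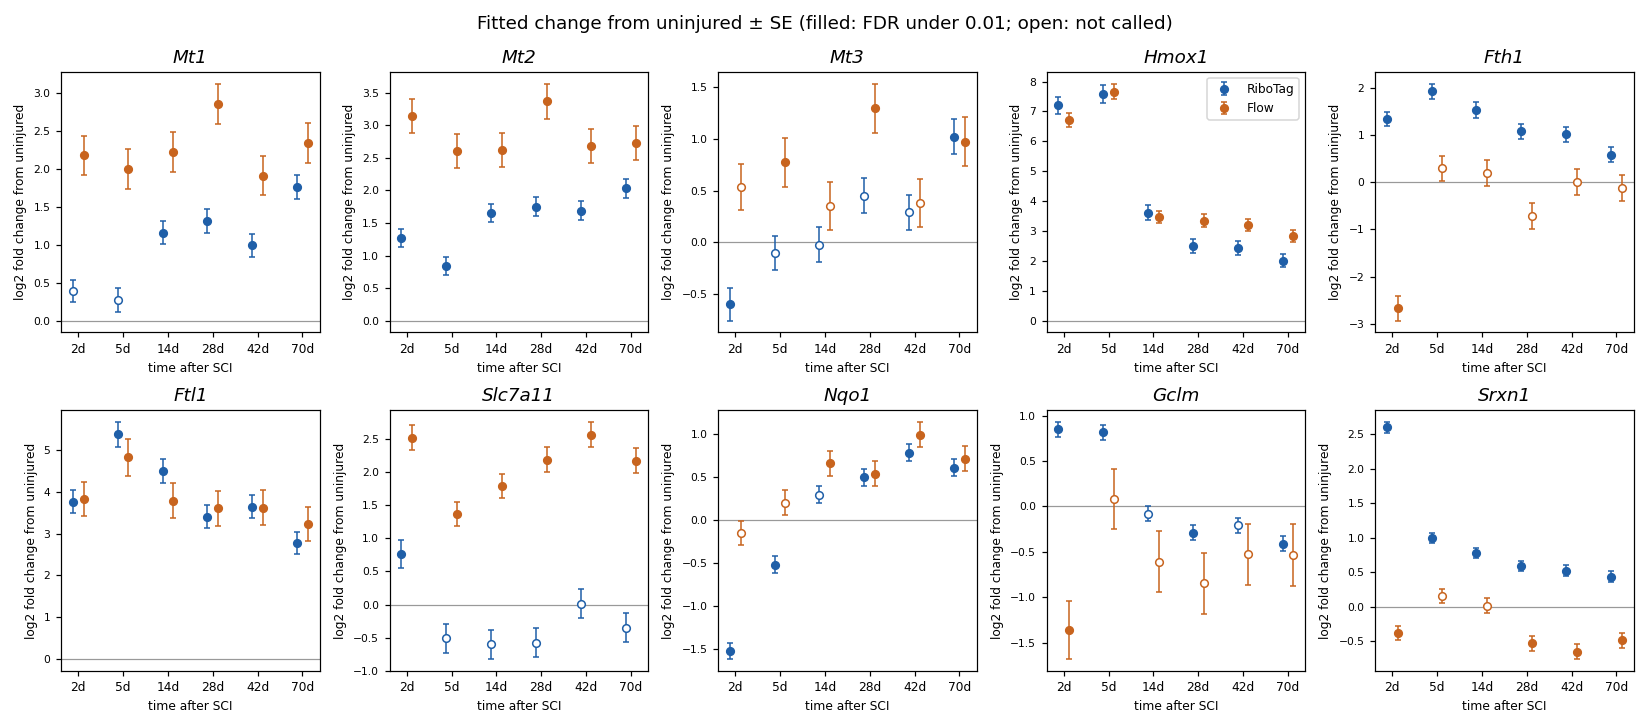
Fitted log2 fold change from uninjured mice with its SE for each of the 10 genes at 2 to 70 d after SCI, in RiboTag (blue) and Flow (orange) libraries of Aldh1l1-CreERT2 -RiboTag females, filled where the FDR was under 0.01 and open otherwise. The largest fitted change of Hmox1 is at 5 d in both fractions, whereas Slc7a11 is at 1.37 or more in Flow at all times and between -0.60 and 0.01 in RiboTag from 5 d on.

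Compared directly, 10 of 10 genes differed between RiboTag and Flow libraries of uninjured Aldh1l1 mice, where 62.1% of all genes did. The metallothioneins were enriched in RiboTag, Mt1 by 3.12 ± 0.13, Mt2 by 3.22 ± 0.14 and Mt3 by 2.27 ± 0.14 on the log2 scale. So were Slc7a11 (2.34 ± 0.25) and Nqo1 (2.31 ± 0.09, adjusted p = 8.35e-10, edgeR). Lower in RiboTag were Fth1 (-3.35 ± 0.10), Ftl1 (-1.98 ± 0.08) and Srxn1 (-1.23 ± 0.07). The smaller enrichments of Hmox1 (0.86) and Gclm (0.80) did not pass when libraries were scaled by total counts (0.28 and 0.22), a scaling that moved the median of all genes by -0.58.

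After SCI 9 genes differed between the fractions at 2 d (55.7% of all genes), 10 at 5 d (64.4%), 9 at 14 d (62.4%), 7 at 28 d (64.4%), 7 at 42 d (46.8%), with 7 at 70 d (45.7%). The metallothioneins and Nqo1 stayed higher in RiboTag than in Flow libraries at each time, with Mt1 at 1.31 ± 0.27 at 2 d and 2.52 ± 0.20 at 70 d. Srxn1 changed sides, from lower in RiboTag without injury to higher at 2 d (1.73 ± 0.14, adjusted p = 5.32e-07) and lower again at 5 d (-0.40 ± 0.08). Slc7a11 was still enriched at 2 d (0.56 ± 0.12) and lay at -0.08 at 14 d, -0.46 at 28 d and -0.21 at 70 d without a call. At 5 d its value of 0.45 did not pass with total-count scaling (0.14) or without RiboTag replicate 1 (0.45) or 3 (0.42) or Flow replicate 1 (0.35) or 2 (0.40), and Hmox1 (0.77) did not pass with that scaling either (0.47). Fth1 did not differ by the test at 2 d (0.64 ± 0.30, adjusted p = 0.0821), and passed without Flow replicate 1 (1.03). In the mGfap line all 10 genes differed at P63 (67.8% of all genes) and at 14 d after SCI (46.9%), in the same direction as in uninjured Aldh1l1 mice except for Hmox1 (-0.88 ± 0.21) and Slc7a11 (-1.58 ± 0.26) at 14 d, which were lower in RiboTag, and the call of Gclm was lost with total-count scaling at P63 (0.43 to 0.02) and in Aldh1l1 mice at 70 d (0.90 to 0.44).

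The mGfap and Aldh1l1 lines were compared to see whether the genes behave alike in the RiboTag RNA of 2 Cre drivers. The uninjured mGfap mice were those of P63 and held both sexes, and the uninjured Aldh1l1 mice were all female. Age and tamoxifen also differed and cannot be told apart from the line here. In uninjured mice none of the 10 genes differed by edgeR's test, where 12.4% of all genes did. Of the 10, 1 had an unadjusted p under 0.05, a threshold to which the 12.4% does not apply. That gene was Mt2, with 2874, 2796, 2547, 3133 and 2226 CPM in mGfap and 1296 to 1669 CPM in Aldh1l1 libraries. Its log2 difference of 0.85 ± 0.25 (adjusted p = 0.0193, edgeR) passed with DESeq2 (0.87) and with total-count scaling (0.93). It also passed with the replicate number as a block (0.93), although these numbers pair nothing between lines.

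At 14 d after SCI the heme and iron genes were lower in the mGfap line. Hmox1 held 82.52, 62.57, 57.05, 70.73 and 66.5 CPM there and 170 to 224 CPM in the Aldh1l1 line, a log2 difference of -1.52 ± 0.13 (adjusted p = 2.13e-08, edgeR). Ftl1 held 325, 201, 267, 474 and 239 CPM against 953 to 1285 CPM (-1.90 ± 0.18, adjusted p = 1.29e-07). Fth1 (-0.76 ± 0.11) and Slc7a11 (-1.06 ± 0.20) were lower too, and the groups did not overlap for any of the 4 genes. These were 4 of 10 genes, against 23.3% of all genes, and each of the 4 remained called when any single library was left out. Other markers differed between these libraries as well. Oligodendrocyte markers summed to 25290 to 38320 CPM in the mGfap RiboTag libraries of 14 d, above the 10850 to 17190 CPM of the Flow libraries of the same mice and near their own astrocyte sum of 26610 to 44890 CPM, so this RNA did not carry the marker profile of astrocytes alone. In the Aldh1l1 libraries of 14 d the sums were 1946 to 2618 CPM for oligodendrocytes and 44070 to 53200 CPM for astrocytes. Of the 10 astrocyte markers 8 were called lower and 1 higher there than without injury, with a median log2 fold change of -1.27. Markers of oligodendrocyte precursors, a list of 5, summed to 636 to 987 CPM in the mGfap and 146.3 to 182 CPM in the Aldh1l1 libraries. Erythrocyte markers summed to 0.9078 to 20.09 CPM in the mGfap and 25.45 to 65.26 CPM in the Aldh1l1 libraries. The summed macrophage markers were 10140 to 15570 CPM in the Aldh1l1 libraries, above the 3844 to 5431 CPM of the Flow libraries of the same mice. The Aldh1l1 RNA of 14 d thus did not carry the marker profile of astrocytes alone either. In the mGfap libraries the sum was 161 to 1434 CPM, and 7 of the 8 markers were detected in every library. That sum and Ftl1 were highest in replicate 4, and Hmox1 was highest in replicate 1. The part of these other cell types in the differences was not tested. Mt1, Mt2 and Mt3 lay at 0.04, 0.00 and 0.30, with mGfap replicate 1 far above the other 4 for each of them (Mt1 15760 against 5281 to 6885 CPM).

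**Figure D3:**
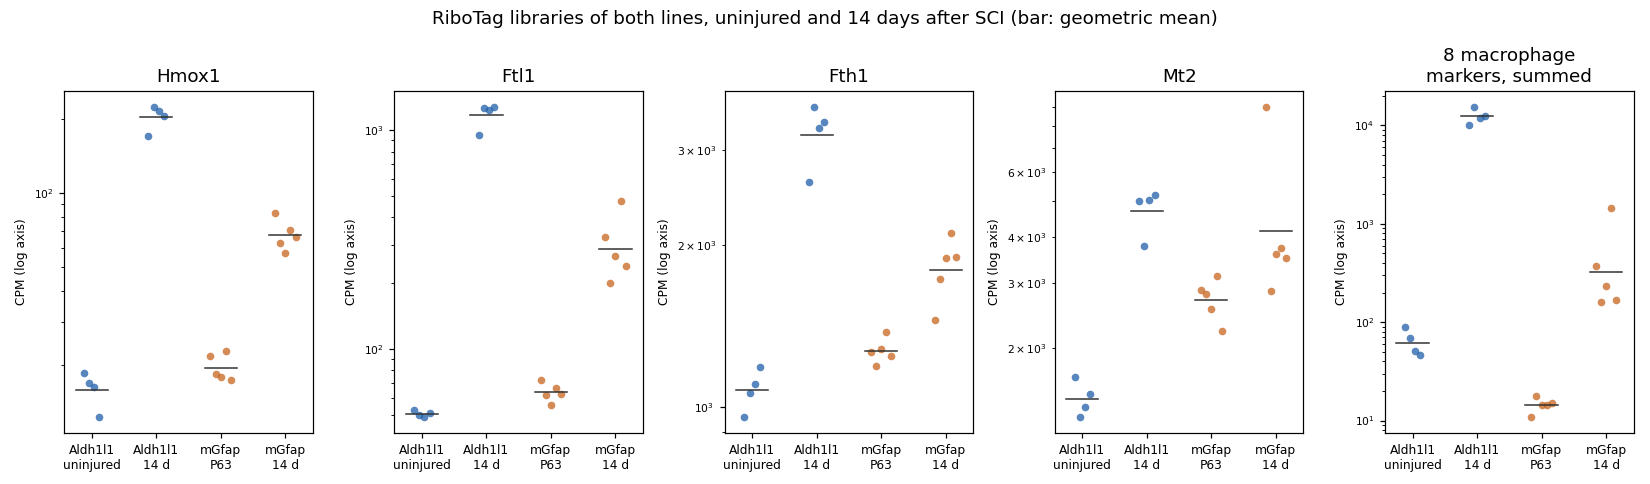
Hmox1, Ftl1, Fth1, Mt2 and the sum of 8 macrophage markers (CPM, log axis) in RiboTag libraries of the Aldh1l1 line (blue) and the mGfap line (orange), uninjured and 14 d after SCI, a point per library and a bar at the geometric mean. At 14 d every mGfap library lies below every Aldh1l1 library for Hmox1, Ftl1, Fth1 and the macrophage markers.

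Within the mGfap line 8 genes passed between P63 and 14 d after SCI, where 44.2% of all genes did. Hmox1 rose by 1.87 ± 0.12 on the log2 scale, Ftl1 by 2.34 ± 0.18, Mt1 by 1.10 ± 0.22, Mt2 by 0.83 ± 0.23, Srxn1 by 0.80 ± 0.07, Fth1 by 0.61 ± 0.11 and Nqo1 by 0.32 ± 0.08, and Slc7a11 fell by 1.44 ± 0.19 (adjusted p = 4.44e-06, edgeR). The injured mice were all labelled female and the P63 mice were 3 males and 2 females. With labelled sex as a covariate 5 genes passed, and Mt1 (1.08), Mt2 (0.86) and Nqo1 (0.30) no longer did. Mt2 also did not pass without P63 replicate 2 (0.84), 3 (0.81) or 5 (0.77), and Nqo1 not without P63 replicate 4 (0.30) or 14 d replicate 5 (0.26) nor with DESeq2 (0.25). The response itself differed between the lines for Hmox1 (-1.77 ± 0.18), Ftl1 (-2.19 ± 0.26) and Fth1 (-0.96 ± 0.16), 3 of 10 genes and 12.7% of all genes. Without mGfap 14 d replicate 1 Mt2 passed too (-1.26 in place of -0.85), and Slc7a11 (-0.87) passed with DESeq2 (-0.96). Slc7a11 also passed with the replicate number as a block (-0.91), although these numbers pair nothing between the groups.

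RiboTag libraries of male and female Aldh1l1 mice were compared at 5 and 14 d with the time as a covariate. None of the 10 genes passed in edgeR's test, none in DESeq2, and none had an unadjusted p under 0.05, while 0.051% of all genes passed. Differences of male from female libraries ranged from -0.14 ± 0.08 (Fth1) to 0.04 ± 0.06 (Srxn1). At 5 d Hmox1 in RiboTag was 2623, 2673, 3617 and 2838 CPM in males, within the female range of 2525 to 3895 CPM. Flow libraries were not tested by sex. Gclm in Flow held 27.11 to 30.2 CPM in males and 19.84 to 22.31 CPM in females at 14 d, and the sexes overlapped at 5 d. Mt2, Mt3 and Nqo1 in Flow overlapped between the sexes at 14 d. Genes without overlap were not counted, so Gclm is a single case.

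Postnatal RiboTag libraries of the mGfap line gained metallothionein transcripts between P7 and P14. Mt1 held 401.2, 472 and 483 CPM at P7 and 4247, 2897, 2974, 2718 and 2555 CPM at P14. Mt2 held 223, 273 and 260 CPM at P7 and 3391, 2534, 2175, 2102 and 2009 CPM at P14. No library of the later age overlapped the earlier one. From P7 to P14 Mt1 rose by 2.77 ± 0.28 on the log2 scale (adjusted p = 5.8e-08, edgeR), Mt2 by 3.28 ± 0.37 (adjusted p = 3.53e-07) and Mt3 by 1.76 ± 0.23 (adjusted p = 2.01e-06), and Srxn1 rose by 0.82 ± 0.16. These were 4 of 10 genes, and 18.8% of all genes passed. Srxn1 did not pass with total-count scaling (0.56). Summed markers were 35560 to 37810 CPM at P7 and 38580 to 50540 CPM at P14 for astrocytes, and 6410 to 7791 and 13920 to 23460 CPM for oligodendrocytes, and their part was not tested.

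From P14 to P21 Fth1, Slc7a11, Nqo1 and Gclm rose. Fth1 rose from 370 to 593 CPM at P14 to 801 to 983 CPM at P21 (0.92 ± 0.11, adjusted p = 6.28e-07, edgeR), and Slc7a11 rose from 53.2 to 67.9 CPM to 84.8 to 117 CPM (0.72 ± 0.14). Nqo1 (0.55 ± 0.15) and Gclm (0.54 ± 0.16) passed with all libraries. Nqo1 was lost without P14 replicate 2 or 3 or P21 replicate 1, 2 or 3 (0.44 to 0.53), and Gclm without P14 replicate 1, 2, 3 or 4 or any P21 replicate (0.47 to 0.56). Ftl1 fell by 0.67 ± 0.13, from 80.9 to 94.4 CPM to 46.0 to 61.7 CPM, so the 2 ferritin chains moved apart at this age. In all 5 genes passed, against 23.1% of all genes. Summed astrocyte markers were 60750 to 74550 CPM at P21, above all P14 libraries, and those of oligodendrocyte precursors had a median of 822.9 CPM at P14 and 1055 CPM at P21, and their part was not tested.

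The other steps between ages held few calls. From P0 to P3 none of the 10 genes passed in edgeR's test (4.83% of all genes), with 4 at an unadjusted p under 0.05 and 2 in DESeq2 (Fth1 at -0.48 and Ftl1 at -0.53). From P3 to P7 none passed (2.73% of all genes), again with 4 at an unadjusted p under 0.05 and 2 in DESeq2 (Mt3 at 0.92 and Slc7a11 at 0.68). From P21 to P35 Slc7a11 alone fell, by 0.71 ± 0.14 (adjusted p = 0.00681), where 0.66% of all genes passed, and the call was lost when these ages were fitted alone and on leaving out P21 replicate 2, 3 or 4 or P35 replicate 1, 2 or 3 (-0.62 to -0.74). From P35 to P63 none passed in edgeR or DESeq2, with 2 at an unadjusted p under 0.05, and 2.4% of all genes passed. The shares of all genes in these steps are those of edgeR at an FDR under 0.01. No share of all genes is given beside the unadjusted counts, so these say nothing particular to the members.

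Over the whole period from P0 to P63, 8 of 10 genes and 50.2% of all genes differed. Mt3 rose by 3.68 ± 0.22 on the log2 scale, from 141, 104, 51.5 and 162 CPM to 1595, 1414, 1368, 1698 and 1334 CPM, Mt1 by 3.62 ± 0.26 and Mt2 by 3.47 ± 0.33 (adjusted p = 9.53e-10, edgeR). Srxn1 (1.70 ± 0.15), Fth1 (1.5 ± 0.12), Gclm (0.98 ± 0.16) and Slc7a11 (0.82 ± 0.14) also rose, the latter 2 without a call under total-count scaling (0.50 and 0.33), and Ftl1 fell by 1.10 ± 0.13. Hmox1 (-0.46) and Nqo1 (0.31) did not pass, though Hmox1 did with total-count scaling (-0.95) and without P0 replicate 1 (-0.62). That scaling moved the median of all genes by -0.49. Summed astrocyte markers were 6846 to 18800 CPM at P0 and 55010 to 63610 CPM at P63, and their part in the result was not tested. The P0 mice were all labelled male and 3 of the 5 P63 mice were, and the part of sex in this comparison was not tested.

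**Figure D4:**
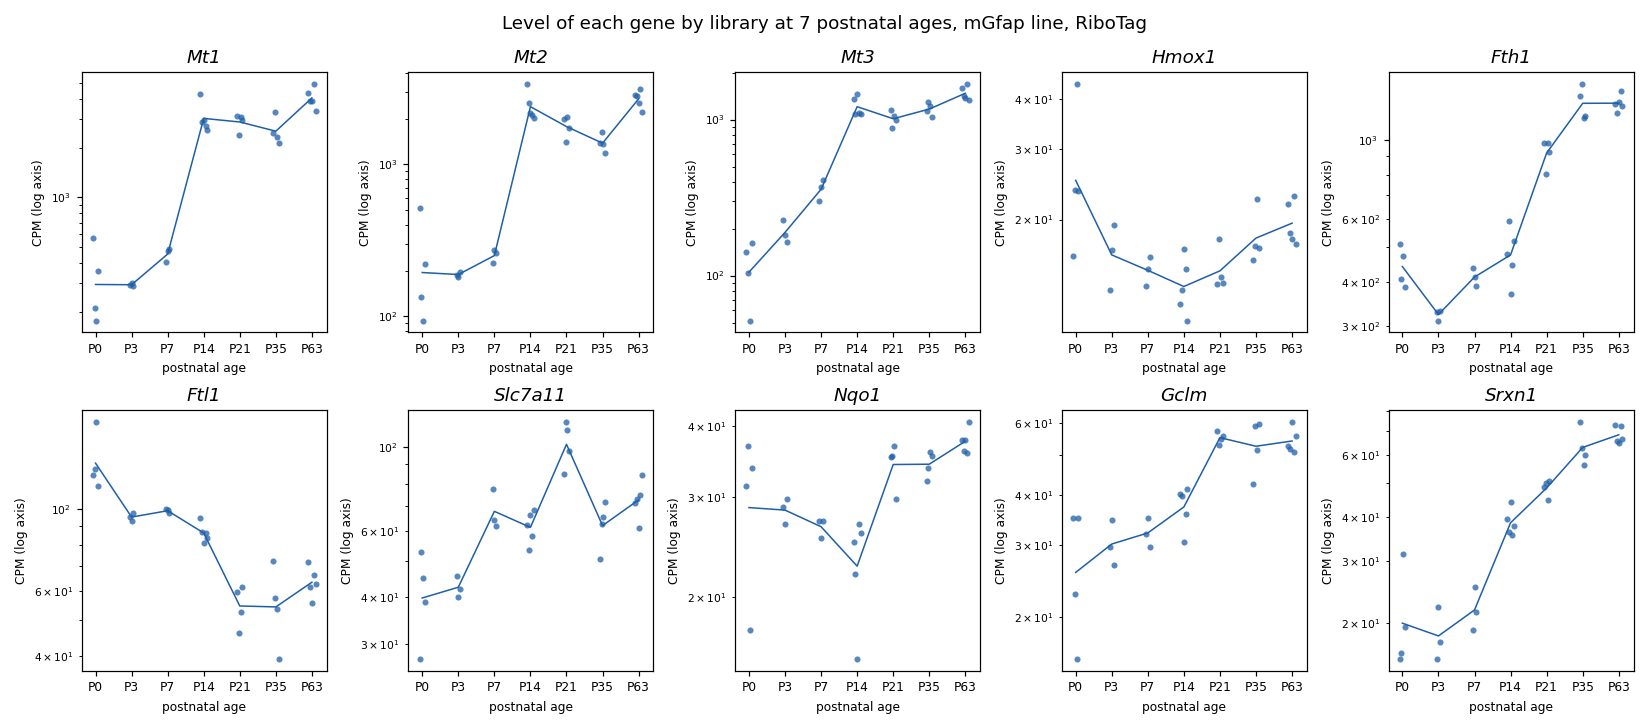
Level of each of the 10 genes (CPM, log axis) in RiboTag libraries of uninjured mGfap mice at 7 ages from P0 to P63, a point per library and a line through the geometric means. Mt1 and Mt2 step up between P7 and P14, Fth1 between P14 and P21, and Ftl1 runs downwards.

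Other genes of the same pathways were described in the RiboTag time course as 8 lists of 80 genes, whose counts stand beside 60.1% of all genes called at 2 d, 56.8% at 5 d, 47.3% at 14 d, with 45.3% at 70 d. Of 9 NRF2 genes and regulators, 6 were higher and none lower at 2 d, a share near the 60.1% of all genes, and 7 higher and 1 lower at 5 d, with a median log2 fold change of 0.69 at 2 d against -0.04 over all genes. The small MAF partners and the repressor led, with Maff at 4.16 ± 0.16 at 2 d (adjusted p = 1.15e-18, edgeR), Mafk at 1.66 ± 0.11 and Bach1 at 2.21 ± 0.13. Nfe2l2 itself was at 0.23 ± 0.10 at 2 d without a call and rose by 1.09 ± 0.10 at 14 d (adjusted p = 4.92e-10), from 82.3 to 88.9 CPM to 156 to 231 CPM. Keap1, its brake, was called at 5 d alone (0.27 ± 0.08).

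Among 15 genes of glutathione synthesis and use, 8 were higher and 5 lower at 2 d, and 9 were higher and 3 lower at 70 d, where 60.1% and 45.3% of all genes were called. Chac1, which degrades glutathione, rose by 3.39 ± 0.25 at 5 d, the peroxidase Gpx1 by 2.70 ± 0.16 at 70 d and the secreted peroxidase Gpx3 by 2.89 ± 0.30 at 14 d. Gclc, the catalytic partner of Gclm, fell by 0.67 ± 0.07 at 2 d (adjusted p = 4.11e-10, edgeR) when Gclm rose by 0.85. It went from 76.9 to 87.6 CPM to 49.9 to 57.2 CPM.

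Of 12 thioredoxin and peroxiredoxin genes 8 were higher and 1 lower at 2 d, and 6 were higher and none lower at 70 d, the latter a share near the 45.3% of all genes. Txn1 (2.52 ± 0.14) and Txnrd1 (2.12 ± 0.10), the thioredoxin and its reductase, were highest at 2 d, and Txnip, an inhibitor of thioredoxin, reached 2.47 ± 0.19 at 42 d. The 4 genes of superoxide and peroxide removal had 3 lower and none higher at 2, 5 and 14 d, with Sod3 (-1.89 ± 0.10) and catalase (Cat, -1.02 ± 0.07) lowest at 2 d and mitochondrial Sod2 (-1.08 ± 0.08) at 14 d. Of 12 genes of NADPH supply and of quinone or aldehyde reduction, 4 were higher and 2 lower at 2 d and 5 higher and 5 lower at 70 d, led by Akr1b8 (4.09 ± 0.47 at 2 d), Osgin1 (2.69 ± 0.25 at 14 d) and Pgd (1.84 ± 0.11 at 2 d).

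Of 10 genes of heme breakdown and synthesis 4 were higher and 3 lower at 2 d, a share near the 60.1% of all genes, and 7 higher and 2 lower at 5 d (56.8% of all genes). Both biliverdin reductases, which act after heme oxygenase, rose at 5 d, Blvra by 1.93 ± 0.15 and Blvrb by 1.31 ± 0.15 (adjusted p = 1.07e-08, edgeR). The heme exporter Flvcr1 rose by 2.63 ± 0.15 at 42 d and haptoglobin (Hp), which binds free hemoglobin, by 3.62 ± 0.53 at 2 d. Of 10 iron genes 6 were higher and 2 lower at 2 d and 2 higher and 3 lower at 70 d. Ferroportin (Slc40a1), the iron exporter, rose by 3.88 ± 0.32 at 5 d, from 1.29 to 1.79 CPM to 15.3 to 26.3 CPM. The transferrin receptor (Tfrc), which imports iron, fell by 2.74 ± 0.22 at 70 d, from 106 to 137 CPM to 9.53 to 21.3 CPM, and ceruloplasmin (Cp) rose by 2.08 ± 0.26 at 42 d.

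Of 8 genes listed under zinc sensing and transport 7 were tested (Mt4 had too few counts). Which metal each listed transporter carries was not examined. At 2 d 2 were higher and 4 lower (60.1% of all genes called) with a median log2 fold change of -0.76 against -0.04 over all genes, at 5 d 1 was higher and 3 lower, at 14 d 1 higher and 2 lower, and at 70 d 1 higher and 5 lower (45.3% of all genes). The transporters Slc30a10 (-3.94 ± 0.25) and Slc39a12 (-2.99 ± 0.14), the latter also an astrocyte marker of the list used above, fell most at 2 d, and Slc39a14 rose by 2.43 ± 0.11 (adjusted p = 4.92e-17, edgeR). Mtf1, the zinc sensor, was at 31.4 to 34.7 CPM without injury and its changes, -0.24 to 0.11, were never called.

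The genes whose 6 fitted changes lay nearest to those of each member, by root mean square (r.m.s.) difference on the log2 scale over all genes tested, are given as a description. Nearest to Hmox1 were Thbs1 (0.27) and Tarm1 (0.73), and nearest to Ftl1 were Lpxn (0.06) and Fermt3 (0.17). Mt1 was followed by Iqcg (0.23) and Spef1 (0.24), Mt2 by Ptges (0.15) and Cfap61 (0.15), and Mt3 by Smim11 (0.11) and Ccl27a (0.14). Fth1 lay beside B4galt5 (0.12) and Sestd1 (0.13), Slc7a11 beside Ndufaf4 (0.13) and Rdx (0.15), Gclm beside Washc5 and G2e3 (0.12 each), Nqo1 beside Sp3os and Eci3 (0.16 each), and Srxn1 beside Snhg17 (0.19) and Hbegf (0.21). Thbs1 changed by 7.39 at 2 d and 7.59 at 5 d, and Lpxn by 3.75 and 5.27.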

How the data were processed

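RNA of the RiboTag and Flow fractions of mouse spinal cord was sequenced, and the authors deposited whole-number read counts per gene, with no normalization, made with Trimmomatic, HISAT2 and featureCounts on mm10. Groups came from the sample labels. RiboTag and Flow libraries of equal number pair, since Flow is the solution left from the same precipitation and the deposited files of 47 of 47 pairs share a sample number, and in the female and mGfap groups their deviations correlated with r over 0.1 in 33 of 39 pairs. The others were at 2 d (-0.1 to 0.02) and 28 d (0.01 to 0.06), and the best match had the same number in 32 pairs. Between times, lines and ages the numbers pair nothing, and p-values measure the spread between libraries. Genes were filtered with filterByExpr and scaled by the trimmed mean of M-values (TMM), and edgeR 4.0.16 (R 4.3.3, limma 3.58.1) quasi-likelihood fits over all groups of a comparison gave log2 fold changes, their standard errors and Benjamini-Hochberg adjusted p-values over all genes tested. A call is an FDR under 0.01. The fits were tested on simulated data with known changes. Few genes were changed there, up and down alike and with a single spread, so scaling where most genes change was not checked. The genes and lists were chosen with earlier results of these data known. Named are all 10 members, per pathway list the 3 called genes with the largest RiboTag change at any time and 8 fixed regulators and enzymes, and per member the 2 nearest genes. CPM levels used 1 TMM scale over all 117 libraries, and RPKM divided these by RefSeq exon length. Alternatives were DESeq2 1.42.0, total-count scaling, no low-count filter, an FDR of 0.05, the replicate number as a block, groups fitted alone, labelled sex as a covariate, ferritin copies summed and leaving out each library. Figures were drawn with matplotlib 3.10.9. Depth was 40710428 to 136008399 counts per library. A single Flow library at 5 d whose title names no male is labelled male and was kept with the females, as in its title.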

Additional observations from a re-analysis of the deposited data

Results flagged for a closer look

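In 15 of 260 combinations of a gene and a group of 4 or 5 libraries, 1 library stood apart from the others by Dixon's test, where chance marks about 5% of groups. Replicate 1 of the mGfap line at 14 d after SCI stood apart for all 3 metallothioneins in RiboTag, with 15760 CPM of Mt1 (others 5281 to 6885), 9043 CPM of Mt2 (2864 to 3739) and 3956 CPM of Mt3 (1321 to 1625), and the ependymal markers summed to 96.9 CPM in it and to 42.7 to 55.6 CPM in the others. Erythrocyte markers also stood apart in it, at 20.1 CPM against 0.908 to 1.92 CPM in RiboTag and at 714 CPM against 32.2 to 71.1 CPM in Flow, and the part of either was not tested. In RiboTag libraries of the Aldh1l1 line the erythrocyte markers were higher still, at 25.45 to 393.9 CPM. Aldh1l1 14 d RiboTag replicate 2 was low in Mt1 (6491 CPM, others 8769 to 9180) and Mt2 (3795 CPM, others 5001 to 5208), and replicate 1 of that group was low in Ftl1 (953 CPM, others 1241 to 1285).

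The other libraries that stood apart did so for a single gene. For Hmox1 these were 14 d male Flow replicate 1 (80.4 CPM), 42 d Flow replicate 2 (57.6 CPM) and P21 RiboTag replicate 2 (17.8 CPM). For the ferritins these were 14 d male Flow replicate 4 (8056 CPM of Fth1) and 5 d male Flow replicate 3 (4404 CPM of Ftl1). Gclm stood apart in uninjured RiboTag replicate 3 (57.3 CPM) and 70 d Flow replicate 3 (16.8 CPM), and Srxn1 in 5 d male Flow replicate 1 (230.8 CPM) and 42 d RiboTag replicate 2 (92.1 CPM).

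By the test of the difference itself, 29 changes differed between fractions or lines. Changes in RiboTag minus those in Flow at 2 d were -1.60 for Mt1, -1.70 for Mt2, -0.94 for Mt3, 4.19 for Fth1, -1.58 for Slc7a11, -1.18 for Nqo1, 2.39 for Gclm and 3.17 for Srxn1. At 5 d they were -1.52 for Mt1, -1.56 for Mt2, 1.84 for Fth1, -1.67 for Slc7a11 and 1.05 for Srxn1, and at 14 d 1.47 for Fth1, -2.26 for Slc7a11 and 0.90 for Srxn1. At 28 d they were -1.49 for Mt1, -1.56 for Mt2, 1.85 for Fth1, -2.71 for Slc7a11 and 1.18 for Srxn1. At 42 d they were 1.09 for Fth1, -2.48 for Slc7a11 and 1.25 for Srxn1, and at 70 d -2.47 for Slc7a11 and 0.98 for Srxn1. The response at 14 d in the mGfap minus the Aldh1l1 line differed by -1.77 for Hmox1, -0.96 for Fth1 and -2.19 for Ftl1.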

How the results depend on the processing

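No change of a member reversed its sign with its call under any alternative run. Counts of members called that moved by over 1.5 times were the following. At an FDR under 0.05 they were 4 in place of 2 from 42 to 70 d, 5 in place of 3 for the difference between fractions at 14 and at 42 d, 1 in place of 0 between uninjured lines, 4 in place of 0 from P0 to P3, 2 in place of 0 from P3 to P7, 2 in place of 1 from P21 to P35 and 1 in place of 0 from P35 to P63. With DESeq2 they were 5 for the difference between fractions at 14 d, 1 between uninjured lines, and 2 each from P0 to P3, P3 to P7 and P21 to P35. Total-count scaling gave 1 between uninjured lines. With groups fitted alone they were 0 from 42 to 70 d, 3 from P3 to P7, 0 from P21 to P35 and 1 from P35 to P63, and with labelled sex as a covariate 5 in place of 8 for mGfap mice at 14 d against P63. Leaving out single libraries gave 1 to 2 from 14 to 28 d, 1 to 4 from 42 to 70 d, 2 to 4 for the difference at 42 d, 0 to 2 from P0 to P3, 3 to 5 from P14 to P21 and 0 to 1 from P21 to P35. The replicate number as a block gave 5 in place of 3 for the difference at 14 d (Mt1 -0.95 and Mt2 -0.86 added) and at 42 d (Mt1 -0.84 and Mt2 -0.91), 1 in place of 0 between uninjured lines (Mt2 0.93) and 0 in place of 1 from P21 to P35. Between lines and ages the replicate numbers pair nothing. Between fractions the block changed no call beyond those given with the differences in change. Of changes of single genes, leaving out a library took 71 below the threshold and 21 past it while 3748 kept their side, DESeq2 took 2 below and 19 past it, total-count scaling 15 and 13, and the block 1 and 13. Without the low-count filter 1 fell below it, and summing ferritin copies moved none. Counts over all genes also moved. From 28 to 42 d 149 genes were called higher and 155 lower, and 730 were called in all with DESeq2, 139 with total-count scaling, 186 with the block and 2 with the groups fitted alone, and from 42 to 70 d 2293 passed, and 0.07 times that number fitted alone. DESeq2 called 1570 in place of 871 from P0 to P3, 965 in place of 493 from P3 to P7, 417 in place of 119 from P21 to P35 and 998 in place of 433 from P35 to P63, and groups fitted alone gave 0 from P0 to P3, 1200 from P3 to P7, 5592 in place of 3388 from P7 to P14 and 27 from P21 to P35. With sex as a covariate 729 in place of 2213 genes differed between uninjured lines and 1423 in place of 2258 in response. Total-count scaling moved the median of all genes by 0.23 in RiboTag and -0.23 in Flow at 2 d. The causes were not tested.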
